A study of Arabidopsis thaliana with 39 samples.

Results

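The genes described here are 10 Arabidopsis thaliana genes of leaf senescence and chlorophyll breakdown, listed by name and identifier, with earlier results of these data known. Of these, 9 have a value among the 20001 genes of the table, and all 9 passed the filter on low values. SAG12 (AT5G45890), a cysteine protease gene often used as a marker of senescence, is not among them and is not analysed further. The 9 others are SAG13 (AT2G29350), SAG29 (AT5G13170), ORE1 (AT5G39610), NAP (AT1G69490), NYE1 (AT4G22920), NYC1 (AT4G13250), NOL (AT5G04900), PPH (AT5G13800) and PAO (AT3G44880).

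RNA was sequenced from whole seedlings of the wild-type accession Col-0, aged 14 days, grown in liquid culture under continuous light at 23 degrees C with 1% sucrose. The seedlings were given the amino acid L-glutamate (L-Glu) at 20 mM, urea at 20 mM or the defence hormone salicylic acid (SA) at 1 mM, and were collected 6, 12, 24 or 48 h later. A mock group was collected at 0 h, which makes 13 groups of 3 libraries and 39 libraries in all. Urea, another nitrogen compound given at the dose of L-Glu, was the reference at each time. The SA groups are labelled with SA alone, so in SA against urea the parts of SA and of urea cannot be told apart. No mock group later than 0 h was analysed here, so against mock the treatment and the time in culture cannot be told apart. The labels do not say whether the libraries of a group came from separate cultures, so the p-values speak for the spread among these libraries alone, and that spread may be technical.

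During leaf senescence chlorophyll is taken apart in the chloroplast before its remains are moved to the vacuole. NYC1 and NOL are the chlorophyll b reductases that begin the conversion of chlorophyll b to chlorophyll a, NYE1 (also called SGR1) removes the central magnesium, PPH removes the phytol tail, and PAO opens the ring of pheophorbide a. ORE1 and NAP are NAC transcription factors that promote senescence and activate chlorophyll breakdown genes, whereas SAG13, a short-chain dehydrogenase, and SAG29, the sugar transporter SWEET15, are genes whose transcripts rise in ageing leaves.

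The values are deposited normalized expression values per gene and library, and whether they are scaled by gene length is not given, so levels are compared within a gene and never between genes. Differences are on the scale of log2(value + 1), which understates changes of genes with low values, such as SAG29 and SAG13 in mock. Each is given with its standard error (SE) from limma, a linear model fitted to all genes and libraries, with Benjamini-Hochberg adjusted p-values over all genes. A gene was called at an adjusted p below 0.05. Sequencing depth is unknown. Library medians lay between 46.4 and 56.9, while library sums ran from 2445645 to 5886170, with the highest sums in L-Glu at 24 h.

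The stretch of 250 bases before the annotated start is printed for 3 genes that show the patterns described below: NYC1, which fell with L-Glu and was not called with SA, PPH, which fell with L-Glu and rose early with SA, and NAP, which rose with SA. None of these 3 windows overlaps another annotated gene. Sequences and positions are from the RefSeq assembly TAIR10.1, while the processing notes name TAIR10 and the table holds no coordinates. Capitals mark every match, on either strand, to CACGTG (the G-box), TTGAC (the core of the W-box bound by WRKY factors) or ATGTA (the core bound by EIN3).
NYC1, chr4:7687007-7687256, minus strand: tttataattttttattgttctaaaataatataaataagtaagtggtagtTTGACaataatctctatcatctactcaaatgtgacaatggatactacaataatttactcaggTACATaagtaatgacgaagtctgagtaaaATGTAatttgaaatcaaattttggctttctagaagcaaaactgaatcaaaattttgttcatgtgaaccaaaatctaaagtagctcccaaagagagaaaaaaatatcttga
PPH, chr5:4454814-4455063, minus strand: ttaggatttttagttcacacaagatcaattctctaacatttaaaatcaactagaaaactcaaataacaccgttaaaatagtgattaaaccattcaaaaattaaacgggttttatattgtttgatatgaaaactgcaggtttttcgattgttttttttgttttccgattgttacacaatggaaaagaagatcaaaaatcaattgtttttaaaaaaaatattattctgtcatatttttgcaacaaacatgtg
NAP, chr1:26121830-26122079, plus strand: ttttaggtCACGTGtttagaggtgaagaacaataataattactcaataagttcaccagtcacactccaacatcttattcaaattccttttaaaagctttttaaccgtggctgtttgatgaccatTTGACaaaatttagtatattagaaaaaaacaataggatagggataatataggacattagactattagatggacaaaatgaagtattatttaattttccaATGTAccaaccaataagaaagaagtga
The NYC1 window holds 1 TTGAC and 2 ATGTA, the NAP window holds each of the 3 motifs, and none of these letters is in the PPH window. Over the windows of 19504 genes of the table, CACGTG was found in 7.33%, TTGAC in 45.5% and ATGTA in 52.3%. Of the 9 members with a value, 2 (NAP and NOL) had CACGTG, 4 had TTGAC and 6 had ATGTA. A match describes the letters only and is no evidence of binding.

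Chlorophyll breakdown genes fell with L-Glu. By 24 h all 5 were called lower than with urea, as 31.3% of all genes were, and at 48 h all 5 were called lower again, against 27.6% of all genes. NYC1 and PAO changed most, by 12.0-fold and 15.5-fold at 24 h. At 6 h none of them was called. With the values as deposited, ORE1 was called lower at 24 h alone, and NAP was called different from urea at no time. In bulk RNA from whole seedlings, fewer cells of a type and less RNA per cell cannot be told apart.

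The course of PAO shows the pattern. With urea, its values were 258, 344 and 284 at 6 h, 267, 371 and 311 at 12 h, 367, 423 and 294 at 24 h, and 358, 406 and 381 at 48 h. With L-Glu they were 266, 318 and 207 at 6 h, 144, 152 and 117 at 12 h, 24.8, 22.9 and 18.8 at 24 h, and 49.4, 79.7 and 27.9 at 48 h. The groups overlapped at 6 h and did not overlap from 12 h on. The log2 difference from urea was -0.17 ± 0.22 (SE) at 6 h, with a limma adjusted p of 0.706. It was -1.19 ± 0.22 at 12 h (adjusted p = 3.29e-05), -3.96 ± 0.22 at 24 h (adjusted p = 4.77e-17) and -2.96 ± 0.22 at 48 h (adjusted p = 1.19e-13). In L-Glu at 24 h PAO had the lowest mean of its 13 groups, 22.2 ± 3.06 (SD, n = 3).

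NYC1 is the chlorophyll b reductase of the thylakoid membrane. At 6 h it was 881, 969 and 779 with L-Glu and 1442, 1289 and 1055 with urea. These libraries did not overlap, but the log2 difference of -0.52 ± 0.23 was not called (limma adjusted p = 0.151). At 12 h the L-Glu libraries lay between 308 and 366 and the urea libraries between 1058 and 1378, and the log2 difference was -1.78 ± 0.23 (adjusted p = 5.64e-08). At 24 h they were 91.0, 73.8 and 91.8 with L-Glu against 1033, 1093 and 966 with urea, a log2 difference of -3.58 ± 0.23 (adjusted p = 1.4e-15). The L-Glu libraries at 48 h, 133, 191 and 68.5, were spread more widely but stayed far under the lowest urea library at that time, 1021, with a log2 difference of -3.32 ± 0.23 (adjusted p = 1.48e-14).

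NOL is the partner reductase of NYC1. At 12 h its L-Glu libraries (71.6, 57.0 and 53.7) overlapped the urea libraries (68.2, 104 and 73.0), and the log2 difference of -0.41 ± 0.22 was not called (limma adjusted p = 0.128). It was called lower at 12 h with quantile normalization (-0.66, 0.0145) and with the libraries scaled to the same total (-0.86, 0.00114). Whether NOL fell later than NYC1 was not tested. At 24 h the values were 23.8, 10.9 and 16.2 against 92.8, 92.3 and 62.3, and the log2 difference was -2.26 ± 0.22 (adjusted p = 7.29e-11). At 48 h they were 11.1, 15.1 and 13.3 against 53.8, 71.9 and 69.8, with a log2 difference of -2.22 ± 0.22 (adjusted p = 1.44e-10). The groups did not overlap at 24 or 48 h. NOL was 4.78-fold and 4.66-fold lower at these times.

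NYE1, the magnesium dechelatase that commits chlorophyll a to breakdown, was 121, 124 and 103 with L-Glu and 125, 130 and 148 with urea at 6 h, with a log2 difference of -0.21 ± 0.17 that was not called (limma adjusted p = 0.507). At 12 h the L-Glu libraries were 51.0, 55.3 and 53.5 and the urea libraries 129, 166 and 116. At 24 h they were 27.9, 29.7 and 36.6 against 148, 154 and 126, and at 48 h 45.8, 37.0 and 35.4 against 321, 233 and 156. No L-Glu library reached a urea library from 12 h on. The log2 differences were -1.33 ± 0.17 (adjusted p = 6.69e-08), -2.15 ± 0.17 (adjusted p = 4.77e-13) and -2.51 ± 0.17 (adjusted p = 1.41e-14).

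PPH, pheophytinase, fell least of these 5 at 24 h. Its values were 69.7, 131 and 85.6 with L-Glu at 24 h against 281, 296 and 212 with urea, and 75.8, 129 and 65.1 at 48 h against 374, 345 and 313. At both times the highest L-Glu library lay under the lowest urea library. The log2 difference was -1.49 ± 0.21 at 24 h (limma adjusted p = 1.77e-07) and -1.98 ± 0.21 at 48 h (adjusted p = 5.64e-10). At 12 h the libraries (106, 163 and 175 against 161, 251 and 239) overlapped, and the log2 difference of -0.56 ± 0.21 (adjusted p = 0.0281) was not called without urea replicate 2 (-0.44, 0.133), urea replicate 3 (-0.47, 0.107) or L-Glu replicate 1 (-0.33, 0.233).

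**Figure D1:**
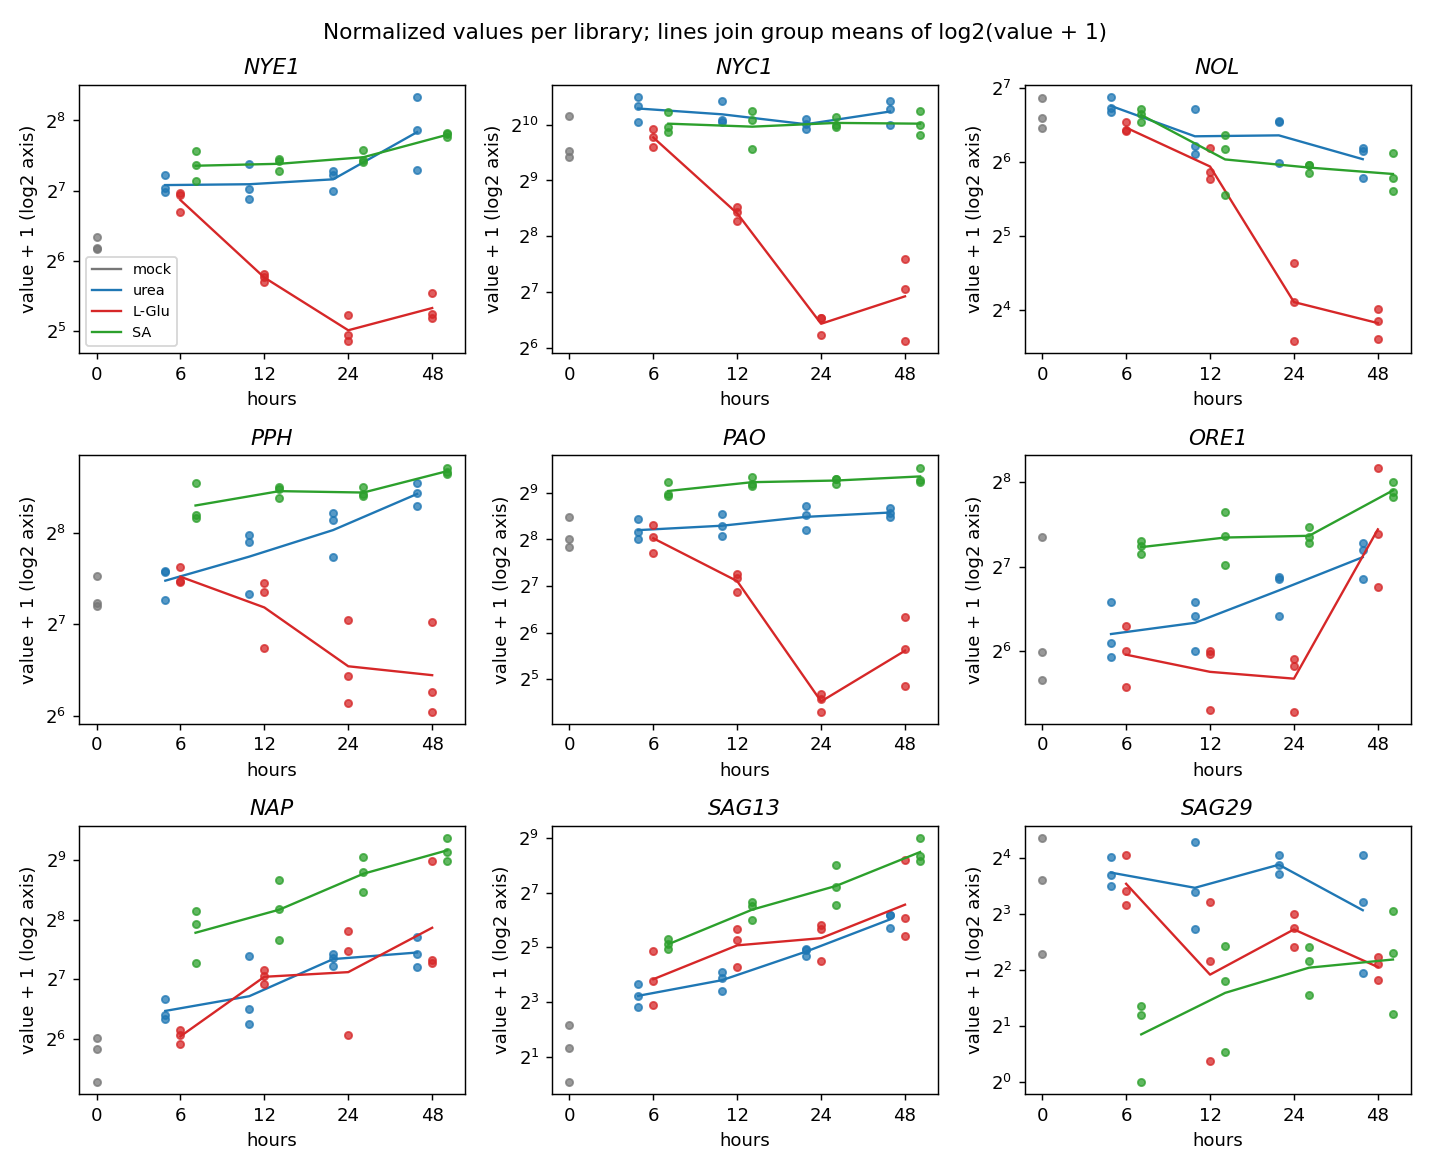
Values + 1 of the 9 measured genes on a log2 axis, against hours after treatment; each point is a library, and lines join the group means of the log2 values for urea, L-Glu and SA, with mock at 0 h. NYC1, NOL, NYE1, PPH and PAO drop under urea with L-Glu from 12 or 24 h on, with the L-Glu libraries of PAO between 18.8 and 24.8 at 24 h.

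ORE1, a NAC factor central to age-dependent senescence, was 38.1, 55.9 and 59.3 with L-Glu at 24 h and 115, 117 and 84.7 with urea. The groups did not overlap, and the log2 difference was -1.04 ± 0.30 (limma adjusted p = 0.00359). At 48 h the L-Glu libraries spread from 108 to 288, across the urea libraries of 115 to 155, and the log2 difference of 0.33 ± 0.30 was not called (adjusted p = 0.379). At 6 and 12 h it was not called either, at -0.24 ± 0.30 (adjusted p = 0.702) and -0.58 ± 0.30 (adjusted p = 0.116). At 12 h ORE1 was called lower with quantile normalization (-0.84, 0.02) and with the libraries scaled to the same total (-1.03, 0.00502).

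NAP in L-Glu was 65.8, 69.8 and 59.2 at 6 h, 119, 141 and 132 at 12 h, 66.1, 223 and 177 at 24 h, and 160, 505 and 154 at 48 h. The urea libraries were 79.8, 82.8 and 101 at 6 h, 166, 75.3 and 89.4 at 12 h, 171, 149 and 163 at 24 h, and 147, 170 and 209 at 48 h. At 6 h every L-Glu library was under every urea library, and at the later times the groups overlapped. The log2 difference ran from -0.43 at 6 h (limma adjusted p = 0.526) to 0.42 at 48 h (adjusted p = 0.337), with 0.33 at 12 h (adjusted p = 0.471) and -0.22 at 24 h (adjusted p = 0.613). With the libraries scaled to the same total, the value at 24 h became -1.29 and was called (adjusted p = 0.00176).

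SAG13 rose from 8.36, 11.5 and 5.99 with urea at 6 h to 71.3, 51.2 and 71.6 at 48 h. With L-Glu it was 38.0, 49.8 and 18.3 at 12 h against 9.61, 16.1 and 13.9 with urea. These libraries did not overlap, and the log2 difference of 1.27 ± 0.52 was called (limma adjusted p = 0.0434). The call was lost without any of the 3 urea libraries or without L-Glu replicate 1 or 2, with adjusted p-values of 0.0506 to 0.177, under both other scalings (0.0605 and 0.173), and with a pseudocount of 0.25 (0.0803). At 6, 24 and 48 h the differences of 0.61 (adjusted p = 0.543), 0.49 (adjusted p = 0.427) and 0.54 (adjusted p = 0.401) were not called.

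SAG29 was low throughout, at most 19.5 in any library. With L-Glu it was 8.30, 0.30 and 3.47 at 12 h against 18.6, 9.46 and 5.63 with urea, and these libraries overlapped. The log2 difference of -1.55 ± 0.61 (limma adjusted p = 0.0342) was not called without urea replicate 1 (-1.14, 0.175), urea replicate 2 (-1.59, 0.0612) or L-Glu replicate 2 (-0.78, 0.320), or in a fit of the compared groups alone (0.0682). At 24 h all L-Glu libraries (7.03, 5.75 and 4.35) were under the urea libraries (15.6, 12.11 and 13.8), but the difference of -1.16 ± 0.61 was not called (adjusted p = 0.0993). It was called under both other scalings, at -1.37 (adjusted p = 0.0449) and -2.06 (adjusted p = 0.0024). At 6 h it was -0.20 (adjusted p = 0.897) and at 48 h -1.01 (adjusted p = 0.163). The 48 h difference was called with the libraries scaled to the same total (-1.43, limma adjusted p = 0.0365) and without urea 48 h replicate 3 (-1.58, 0.0459).

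Across the 9 genes, limma called 0 at 6 h, against 11.5% of all genes, and 1 (NYC1) had an unadjusted p below 0.05. At 6 h NAP, NYE1, NYC1 and NOL had L-Glu libraries that lay wholly under the urea libraries, as 13.7% of all genes did. At 12 h 5 were called lower and 1 higher, against 21.9% and 25.8% of all genes. At 24 h 6 were called lower and none higher, against 31.3% and 29.3%, and at 48 h 5 were lower and none higher, against 27.6% and 25.2%. The median log2 difference of the 9 genes was -0.21, -0.58, -1.49 and -1.98 from 6 to 48 h, beside 0.00, -0.04, -0.10 and -0.06 over all genes. Much of the transcriptome thus passed the test in both directions. Scaling the libraries to the same total shifted the median of all genes to -0.47, -1.10 and -0.54 at 12, 24 and 48 h and that of the 9 genes to -1.03, -2.56 and -2.48. It left 17.9% of the called genes higher at 24 h, against 48.33% with the values as deposited, and at 12 h it called 7 of the 9 genes lower and none higher. Quantile normalization gave the same 7 and 0 at 12 h. Relative to the median of all genes, NYE1, NYC1, NOL, PPH and PAO were lower under each scaling at 24 and 48 h. With the values as deposited, the calls of these genes against urea at 24 and 48 h held when any 1 of the libraries compared was left out.

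The step of this fall was tested as a shift, between times, in how far L-Glu lay from urea. From 6 to 12 h 3 of the 9 genes were called, all lower, against 4.88% of all genes: NYE1 (-1.12 ± 0.24, limma adjusted p = 0.00134), NYC1 (-1.26 ± 0.32, 0.00575) and PAO (-1.01 ± 0.31, 0.022). PPH was also called lower in this shift with quantile normalization (-0.81, limma adjusted p = 0.0443) and with the libraries scaled to the same total (-1.06, 0.0117). From 12 to 24 h 5 were called, all lower, against 10.9%. PAO moved by -2.77 ± 0.31 (adjusted p = 2.97e-08), NOL by -1.85 ± 0.31 (3.71e-05) and NYC1 by -1.80 ± 0.32 (7.95e-05), whereas NYE1 moved by -0.82 ± 0.24 (0.0154) and PPH by -0.93 ± 0.30 (0.0244). The PAO call from 6 to 12 h was lost without urea 6 h replicate 1 (-0.92, 0.0614), urea 12 h replicate 2 (-0.89, 0.0664), L-Glu 6 h replicate 2 (-0.87, 0.0812) or L-Glu 12 h replicate 3 (-0.90, 0.0662). The NYE1 call from 12 to 24 h was lost without urea 12 h replicate 3 (-0.71, 0.055), and the PPH call was lost in 7 of the 12 fits that left out 1 library (0.0546 to 0.102) and in a fit of the compared groups alone (0.077). From 6 to 48 h 5 were called lower, against 19.1%. The calls over all genes in these shifts depended on the scaling. Scaled to the same total, 5838 genes were called from 6 to 12 h, 23.4% of them higher, in place of 3291 and 70.3%. From 12 to 24 h they were 7445 and 6.17%, in place of 3535 and 38.3%. From 6 to 48 h they were 9268 and 20.9%, in place of 7101 and 46.1%. Most calls were then lower, so the shares of all genes given here hold for the values as deposited alone.

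From 24 to 48 h 2 were called, both upwards, against 8.15% of all genes: ORE1 (1.37 ± 0.43, limma adjusted p = 0.0194) and PAO (1.00 ± 0.31, 0.0191). Without L-Glu 48 h replicate 2, neither was called, at 1.01 (0.0839) and 0.64 (0.0968), and PPH was called lower (-0.78, 0.042). NYE1 was called lower without urea 48 h replicate 3 (-0.62, 0.0418). ORE1 was also lost without urea 48 h replicate 1 (1.24, 0.0516) or L-Glu 24 h replicate 1 (1.18, 0.0651), and PAO without urea 24 h replicate 2 (0.87, 0.0594) or in a fit of the compared groups alone (1.00, 0.116). Scaled to the same total, 6437 of all genes were called in this shift, 82.6% of them higher, in place of 4514 and 36.1%.

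L-Glu 48 h replicate 2 was the highest library of its group for SAG13 (291, against 66.0 and 42.2), ORE1 (288, against 167 and 108), NAP (505, against 160 and 154), PPH, PAO, NYC1 and NOL. Without it, the 5 chlorophyll breakdown genes were still called lower at 48 h, at log2 differences between -3.65 and -2.27. The L-Glu libraries at 48 h also stood apart in the 13 mitochondrial genes of the table, which made up 0.249% to 0.541% of their summed values, against at most 0.0919% in each of the 36 other libraries. The part of this in the values at 48 h was not tested.

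**Figure D2:**
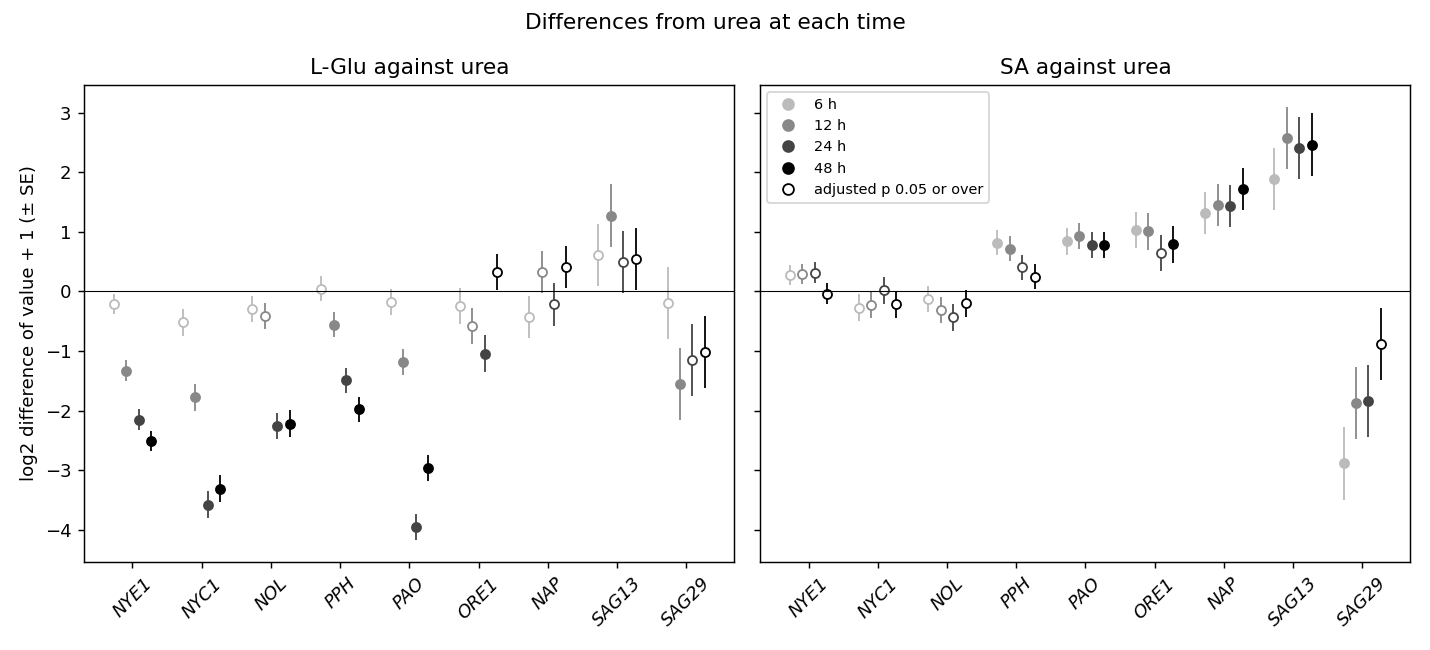
Log2 differences ± SE of the 9 measured genes against urea at 6, 12, 24 and 48 h, for L-Glu and for SA; filled points are called at an adjusted p below 0.05. With L-Glu the 5 chlorophyll breakdown genes go down to between -3.96 and -1.49 at 24 h, while with SA SAG13 and NAP stay above 0 at each time.

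SA was followed by higher values of 5 of the 9 genes at some or all times. SAG13, NAP and PAO were higher than with urea at all 4 times, ORE1 at 6, 12 and 48 h and PPH at 6 and 12 h. SAG29 was lower at 6, 12 and 24 h. NYE1, NYC1 and NOL were called at no time, and whether they differ in this from PPH and PAO was not tested. At 6 h 5 of the 9 were called higher and 1 lower, against 15.9% and 13.5% of all genes, and at 12 h the counts were again 5 and 1, against 16.2% and 15.6%. At 24 h 3 were higher and 1 lower, against 15.1% and 15.5%, and at 48 h 4 were higher and none lower, against 13.5% and 14.9%. The median of the 9 was 0.82, 0.72, 0.41 and 0.25 from 6 to 48 h, beside -0.02, -0.02, 0.00 and 0.01 over all genes.

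SAG13 showed the largest rise. With SA its values were 29.5, 38.3 and 33.9 at 6 h, 99.0, 63.1 and 89.3 at 12 h, 146, 92.1 and 257 at 24 h, and 320, 282 and 510 at 48 h. Every SA library was above every urea library of the same time. The log2 differences were 1.89 ± 0.52, 2.58 ± 0.52, 2.41 ± 0.52 and 2.47 ± 0.52, with limma adjusted p-values of 0.00577, 0.000223, 0.000529 and 0.000412. Mock seedlings had 1.49, 3.48 and 0.05.

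NAP with SA was 153, 242 and 281 at 6 h, 406, 200 and 289 at 12 h, 442, 352 and 529 at 24 h, and 504, 562 and 659 at 48 h. No SA library overlapped the urea libraries of its time. The log2 difference was 1.31 ± 0.35 at 6 h (limma adjusted p = 0.00484), 1.45 ± 0.35 at 12 h (0.00172), 1.43 ± 0.35 at 24 h (0.00208) and 1.72 ± 0.35 at 48 h (0.00031). ORE1 with SA was 151, 157 and 141 at 6 h, 199, 129 and 164 at 12 h, 176, 154 and 163 at 24 h, and 226, 255 and 236 at 48 h, above every urea library at each time. Its log2 differences were 1.03 ± 0.30 (limma adjusted p = 0.00989), 1.01 ± 0.30 (0.0103), 0.65 ± 0.30 (0.107) and 0.79 ± 0.30 (0.0492). The ORE1 call at 48 h was lost without any of the 6 libraries compared (adjusted p 0.0649 to 0.166), under both other scalings (0.123 and 0.14) and with a pseudocount of 0.25 (0.0527), that at 6 h without urea replicate 3 (0.89, 0.0551), and that at 12 h without urea replicate 3 (0.84, 0.0641) or SA replicate 1 (0.86, 0.0579).

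PAO with SA was 486, 598 and 499 at 6 h, 650, 581 and 569 at 12 h, 625, 631 and 586 at 24 h, and 744, 619 and 604 at 48 h. It was above every urea library of the same time, by log2 differences of 0.84 ± 0.22 (limma adjusted p = 0.00374), 0.93 ± 0.22 (0.00124), 0.78 ± 0.22 (0.00648) and 0.77 ± 0.22 (0.00728). The call at 24 h was lost without urea replicate 3 (0.64, 0.0545) and that at 48 h with libraries scaled to the same total (0.60, 0.0514). PPH with SA was 286, 371 and 292 at 6 h against 153, 191 and 190 with urea, a log2 difference of 0.82 ± 0.21 (limma adjusted p = 0.00292). At 12 h it was 333, 362 and 356 against 161, 251 and 239, with a difference of 0.72 ± 0.21 (0.00817) that was not called without urea replicate 1 (0.51, 0.0908). At 24 and 48 h the PPH libraries still did not overlap those of urea, but the differences of 0.41 (0.14) and 0.25 (0.41) were not called. At 24 h, in a fit of the compared groups alone, both PPH (0.0244) and ORE1 (0.00349) were called higher with SA.

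For NYE1, NYC1 and NOL the SA values were near those of urea. The log2 differences ran from -0.04 to 0.31 for NYE1, from -0.27 to 0.02 for NYC1 and from -0.44 to -0.12 for NOL. At 24 h the 95% intervals were -0.03 to 0.66 for NYE1, -0.44 to 0.49 for NYC1 and -0.89 to 0.01 for NOL, so changes within these bounds cannot be told from none. NYC1 with SA at 24 h was 994, 1125 and 1024, across the urea range of 966 to 1093. At the same time NYE1 with SA (172, 169 and 191) lay above the urea libraries and NOL (56.9, 61.2 and 61.1) under them, neither with a call (limma adjusted p = 0.17 and 0.137).

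SAG29 moved the other way with SA. At 6 h it was 1.29 and 1.56 in replicates 2 and 3 and is listed at 0 in replicate 1, against 15.3, 10.3 and 12.0 with urea, a log2 difference of -2.89 ± 0.61 (limma adjusted p = 0.000393). At 12 h the values were 2.49, 4.42 and 0.45 against 18.6, 9.46 and 5.63 (-1.88 ± 0.61, 0.0165), and at 24 h 1.95, 3.47 and 4.31 against 15.6, 12.11 and 13.8 (-1.84 ± 0.61, 0.0196). SA and urea libraries did not overlap at these 3 times and overlapped at 48 h (-0.88 ± 0.61, 0.302). The 12 h call was lost without urea replicate 1 (-1.46, 0.108) or SA replicate 3 (-1.35, 0.132), and the 24 h call without urea replicate 1 (-1.76, 0.0581) or SA replicate 1 (-1.60, 0.0861). The 24 h call was also lost with quantile normalization (-1.39, 0.0801) and with a pseudocount of 0.25 (-2.07, 0.0525).

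The SA minus urea difference did not change detectably between 6 and 48 h for any of the 9 genes. limma called 0, against 7.41% of all genes, and 1 (SAG29, 2.01 ± 0.86, adjusted p = 0.164) had an unadjusted p below 0.05.

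L-Glu and SA were also compared with each other at each time. At 6 h 5 of the 9 genes were lower with L-Glu and SAG29 was higher (2.69 ± 0.61, limma adjusted p = 0.000753), against 15.9% and 17.4% of all genes. The 5 were ORE1 (-1.27 ± 0.30, 0.00137), NAP (-1.74 ± 0.35, 0.000242), NYE1 (-0.49 ± 0.17, 0.0262), PPH (-0.78 ± 0.21, 0.00405) and PAO (-1.01 ± 0.22, 0.00049). The NYE1 call was lost without L-Glu replicate 3 (-0.41, 0.12), SA replicate 2 (-0.39, 0.137) or SA replicate 3 (-0.48, 0.063), and with libraries scaled to the same total (-0.43, 0.0713). SAG13, at -1.28 ± 0.52, was not called (adjusted p = 0.0565). It was called without L-Glu 6 h replicate 2 (-1.79, 0.0123), with quantile normalization (-1.46, 0.0265) and with a replicate block (-1.28, 0.0433). It was also called without both L-Glu 6 h replicate 2 and L-Glu 48 h replicate 2 (-1.79, 0.00268), a choice made after seeing the data. Under the other alternatives it was not called.

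At 12 h 7 of the 9 were lower with L-Glu than with SA and none was higher, against 23.3% and 29.1% of all genes. Of these 7, SAG13 was not called without L-Glu replicate 3 (-0.91, 0.196), SA replicate 1 (-1.18, 0.1) or SA replicate 3 (-1.25, 0.0834), or with a pseudocount of 0.25 (-1.33, 0.072), and NAP was not called without SA replicate 1 (-0.88, 0.0634). At 24 h 8 of the 9 were lower and none was higher, against 30.8% and 31.7%. PAO then differed by -4.74 ± 0.22 (limma adjusted p = 6.67e-19), or 26.7-fold, NYC1 by -3.60 ± 0.23 (1.35e-15), NYE1 by -2.47 ± 0.17 (1.61e-14) and NAP by -1.65 ± 0.35 (0.000134). SAG29 was the exception (0.68 ± 0.61, 0.336). At 48 h 7 were lower and none higher, against 29.6% and 29.4%, and ORE1 (-0.46 ± 0.30, 0.197) and SAG29 (-0.13 ± 0.61, 0.864) were not called. ORE1 was called lower at 48 h with the libraries scaled to the same total (-0.79, limma adjusted p = 0.0258) and without L-Glu 48 h replicate 2 (-0.83, 0.0248). These comparisons use the same L-Glu and SA libraries as those against urea.

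Some of the 9 genes also moved with time under urea. Between 6 and 48 h 4 rose and 1 fell, against 7.28% and 8.51% of all genes. SAG13 rose by 2.80 ± 0.52 on the log2 scale (limma adjusted p = 0.000275), PPH by 0.95 ± 0.21 (0.00166), NYE1 by 0.75 ± 0.17 (0.00221) and ORE1 by 0.91 ± 0.30 (0.0377), while NOL fell by 0.72 ± 0.22 (0.0226). Over the same interval 21 of the 22 measured genes of chlorophyll synthesis and 4 of 5 shoot marker genes were called lower and none of either list higher, and the summed level of the shoot markers went from between 115680 and 121294 to between 56704 and 60981. Their part in the values of the 9 genes was not tested. NAP (0.98 ± 0.35, 0.056), PAO, NYC1 and SAG29 were not called, though NAP was called under both other scalings (0.0344 and 0.0249) and in a fit of the compared groups alone (0.00111). The NYE1 call was lost without urea 48 h replicate 1, its highest library (0.51, 0.0526). The ORE1 call was lost without urea 6 h replicate 1 (0.86, 0.112) or 3 (0.77, 0.149) or urea 48 h replicate 2 (0.87, 0.1) or 3 (0.82, 0.111). The NOL call was lost without urea 6 h replicate 1 (-0.74, 0.0541) or 2 (-0.66, 0.0845) or urea 48 h replicate 1 (-0.59, 0.129), and with libraries scaled to the same total (-0.57, 0.0672).

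Averaged over the 4 times, urea was higher than mock for SAG13 (3.29 ± 0.41, limma adjusted p = 1.33e-06), NAP (1.29 ± 0.28, 0.00166), NYE1 (1.06 ± 0.14, 1.8e-06) and PPH (0.60 ± 0.17, 0.0126), that is 4 of 9 against 7.79% of all genes, and none was lower, against 6.14%. The PPH call was lost without mock replicate 1 (0.55, 0.0838) or 3 (0.54, 0.0868). NYC1 was called higher with quantile normalization (0.55, limma adjusted p = 0.0358), in a fit of the compared groups alone (0.0177) and without mock replicate 3 (0.71, 0.023). ORE1 was called higher without mock replicate 1 (0.77, 0.0401) but was -0.08 without mock replicate 2. NYE1 in mock was 70.6, 80.2 and 71.7, under every urea library. With L-Glu at 24 and 48 h, NYE1 at 27.9 to 45.8 lay under mock as well. NOL in mock (116, 86.7 and 95.9) overlapped urea at 6 h (105, 117 and 101).

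Ordered by level, the 9 genes fall into different sequences of groups. L-Glu at 24 h was lowest for PAO, NYC1, NYE1 and ORE1, L-Glu at 48 h for NOL and PPH, SA at 6 h for SAG29 and mock for SAG13 and NAP. SA at 48 h was highest for SAG13, ORE1, NAP, PPH and PAO. Neighbours in such an order mostly overlapped. Of 12 neighbouring pairs, 12 overlapped for ORE1 and SAG29, 11 for NAP, NOL and PPH, 10 for NYC1 and SAG13, 8 for PAO and 7 for NYE1.

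Over the 13 group means, the log2 levels of NYE1 and PPH had a Pearson correlation of 0.95, NYC1 and PAO of 0.945, NYE1 and PAO of 0.933, and SAG13 and NAP of 0.945. The 10 pairs among the chlorophyll breakdown genes ran from 0.601 (NOL with PPH) to 0.95, and the 3 pairs among SAG13, ORE1 and NAP from 0.689 to 0.945. The 15 pairs between these sets ran from -0.44 (SAG13 with NOL) to 0.607 (ORE1 with PPH), with a median of 0.286, so the ranges overlapped. SAG29 ran from -0.64 with NAP to 0.251 with NOL. These correlations describe 13 points that share treatments and times, and no test was made of them. Among all genes, the most alike in pattern was AT1G79600 for NYC1 (0.991), CLPP3, AT1G66670, for PAO (0.99), RPL24, AT5G54600, for NOL (0.99), RPT2, AT2G30520, for NYE1 (0.985), and CID7, AT2G26280, for PPH (0.97). It was UPL5, AT4G12570, for ORE1 (0.973), AT1G10410 for SAG13 (0.972), ORP3C, AT5G59420, for NAP (0.957) and AT1G74580 for SAG29 (0.92).

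The counts of related genes that follow are read against the shares of all genes called higher and lower than urea. With L-Glu these were 8.36% and 3.15% at 6 h, 25.8% and 21.9% at 12 h, 29.3% and 31.3% at 24 h, and 25.2% and 27.6% at 48 h. With SA they were 15.9% and 13.5%, 16.2% and 15.6%, 15.1% and 15.5%, and 13.5% and 14.9%.

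Other genes of chlorophyll breakdown also fell with L-Glu. Of 9 measured, 1 was called lower and 1 higher at 6 h, 4 lower at 12 h, 7 lower at 24 h and 8 lower at 48 h, with none higher from 12 h on. The median log2 difference was -0.20, -0.71, -1.86 and -2.04 in turn. At 24 h CYP89A9, a cytochrome P450 acting on late chlorophyll catabolites, was lower by -3.44 ± 0.31 (limma adjusted p = 6.97e-12), TIC55, an envelope protein that hydroxylates them, by -3.39 ± 0.14 (5.34e-20), and HCAR, which reduces hydroxymethyl chlorophyll a, by -2.65 ± 0.19 (4.55e-14). The shares called lower from 12 h on were 44.4%, 77.8% and 88.9%, each above that of all genes. With SA 3, 3, 4 and 3 of the 9 were higher at the 4 times and 1 was lower, at 24 h, with a median of 0.35 at that time. CYP89A9 (1.16 ± 0.31, 0.0035) and the esterase gene MES16 (1.47 ± 0.36, 0.00171) rose with SA, and MES16 was lower with L-Glu (-1.16 ± 0.36, 0.00537).

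The genes of chlorophyll synthesis fell with L-Glu too. Of 22 measured, 2 were higher and none lower at 6 h, 4 higher and 6 lower at 12 h, 1 higher and 18 lower at 24 h, and 1 higher and 21 lower at 48 h. The medians were 0.07, -0.18, -1.70 and -2.07, and the shares called lower, 27.3% at 12 h, 81.8% at 24 h and 95.5% at 48 h, compare with 21.9%, 31.3% and 27.6% of all genes. At 24 h the magnesium chelatase subunit gene CHLI2 was lower by -3.84 ± 0.38 (limma adjusted p = 1.21e-10), the methyltransferase gene CHLM by -3.10 ± 0.18 (1.08e-16) and the uroporphyrinogen decarboxylase gene HEME2 by -2.75 ± 0.15 (1.28e-17). HEMA2, a glutamyl-tRNA reductase gene, was the member that rose at 24 h (3.97 ± 0.19, 7.63e-19). HEMF1, a coproporphyrinogen oxidase gene, was lower with L-Glu (-1.84 ± 0.14, 9.62e-14) and higher with SA (0.99 ± 0.14, 9.15e-07), and so was the chelatase subunit gene CHLD (-2.01 ± 0.14, 1.02e-14, and 0.52 ± 0.14, 0.00363). With SA 1 of the 22 was higher and 5 lower at 6 h, 1 and 4 at 12 h, 5 and 1 at 24 h, and 9 and 1 at 48 h, with medians of -0.22, -0.12, 0.08 and 0.31. At 24 h the split was 3 higher and 4 lower after quantile normalization, with a median of -0.09, and 4 and 2 with libraries scaled to the same total, with a median of -0.03.

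Regulators of senescence outside the 9 genes moved mainly the other way with L-Glu. Of 25 measured, 7 were higher and 1 lower at 6 h, 14 and 1 at 12 h, 16 and 5 at 24 h, and 14 and 4 at 48 h, with medians of 0.03, 1.42, 1.68 and 1.62. At 24 h that is 64.0% higher and 20.0% lower, against 29.3% and 31.3% of all genes. At 24 h the split was 12 higher and 9 lower with libraries scaled to the same total, and 15 and 8 after quantile normalization. WRKY53, a WRKY factor that promotes senescence, rose by 7.06 ± 0.45 at 24 h (limma adjusted p = 1.57e-15), the NAC factor gene NAC019 by 4.30 ± 0.51 (4.69e-09) and WRKY22 by 4.12 ± 0.43 (2.6e-10). VNI2, a NAC factor that restrains senescence, fell by 1.06 ± 0.23 (0.000125), ORS1 by 0.99 ± 0.34 (0.0111) and EIL1 by 0.88 ± 0.13 (4.15e-07). With SA 12, 12, 9 and 7 of the 25 were higher at the 4 times and none was lower.

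Other senescence-associated genes rose with L-Glu in 4, 7, 8 and 7 of 12 measured and fell in 0, 2, 2 and 4, with medians of 0.22, 1.89, 2.50 and 1.90. The shares called higher at 24 and 48 h, 66.7% and 58.3%, were above the 29.3% and 25.2% of all genes, while those called lower were 16.7% at 24 h, below the 31.3% of all genes, and 33.3% at 48 h, near their 27.6%. At 24 h 6 were higher and 4 lower with libraries scaled to the same total. SAG14, a blue copper protein gene, rose by 6.84 ± 0.42 at 24 h (limma adjusted p = 4.61e-16), SAG101, a lipase-like gene that also acts in immunity, by 4.50 ± 0.28 (1.1e-15), and YLS9 by 3.77 ± 0.57 (7.32e-07). SEN1, a gene induced by darkness, fell by 4.91 ± 0.50 (1.54e-10). SAG2, a cysteine protease gene, fell by 1.66 ± 0.17 with L-Glu (1.93e-10) and rose by 0.87 ± 0.17 with SA (0.000156). With SA 7, 8, 7 and 3 of the 12 were higher at the 4 times and 2 were lower, at 48 h.

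Autophagy genes showed little common movement with L-Glu. Of 13 measured, 1 was higher and none lower at 6 h, 2 and 4 at 12 h, 2 and 2 at 24 h, and 2 and 1 at 48 h, with a median of -0.11 at 24 h. The 15.4% called in each direction at 24 h lay below the 29.3% and 31.3% of all genes. ATG8E (1.39 ± 0.25, limma adjusted p = 1.55e-05) and the cargo receptor gene NBR1 (1.35 ± 0.19, 2.09e-07) were higher, and ATG8I (-1.39 ± 0.27, 4.08e-05) and ATG8F (-1.11 ± 0.15, 1.12e-07) were lower. Scaling to the same total, which shifted all genes to a median of -1.10, gave 0 higher and 11 lower. With SA 8, 9, 7 and 1 of the 13 were higher at the 4 times and none was lower. The share higher was 61.5% at 6 h, above the 15.9% of all genes, and 7.69% at 48 h, below their 13.5%.

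**Figure D3:**
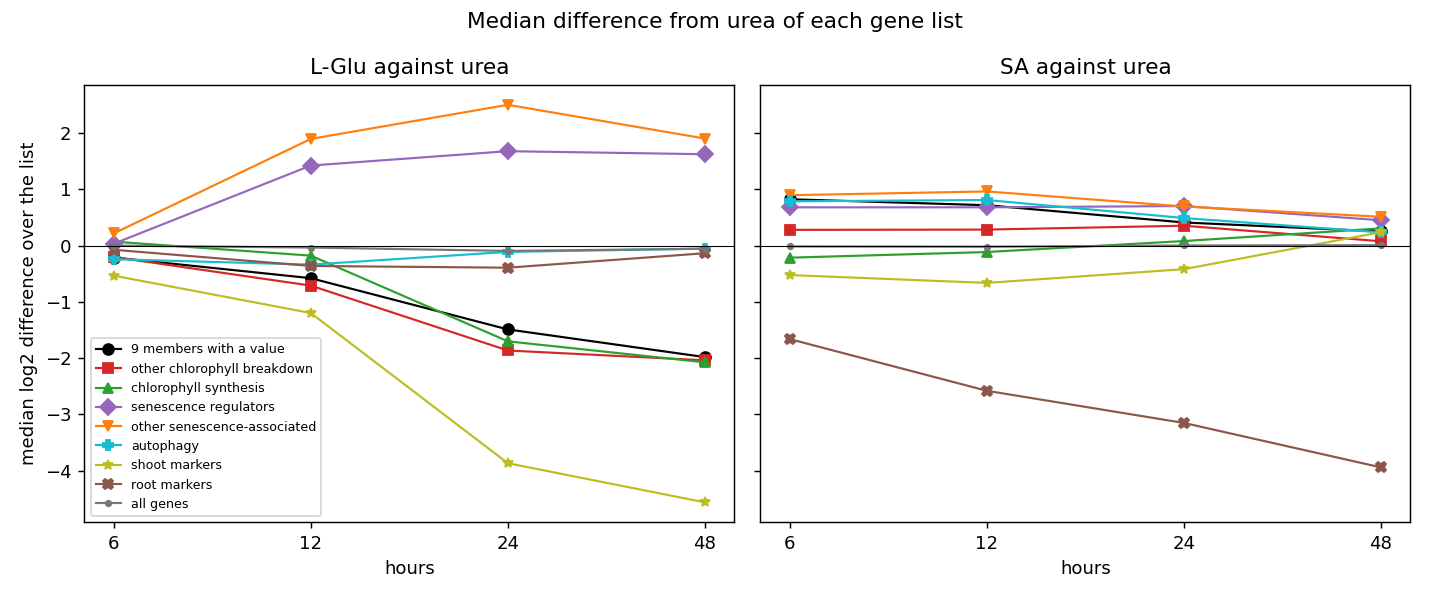
Median log2 difference of each gene list against urea at 6, 12, 24 and 48 h, for L-Glu and SA, with the median of all genes. With L-Glu at 48 h the lists of chlorophyll breakdown and synthesis reach -2.04 and -2.07 while senescence regulators lie at 1.62.

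Markers of green tissue fell in the same libraries. All 5 shoot markers (RBCS1A, RCA, LHCB2.1, CA1 and GLDP1) were called lower with L-Glu at 24 and 48 h, with medians of -3.87 and -4.56. Earlier, 1 was called lower at 6 h and 4 at 12 h, with a median of -1.20 at 12 h. The sum of the 5 at 12 h was 53612 to 59069 with L-Glu, against 95307 to 110256 with urea. Their summed level was 4268 to 8887 with L-Glu at 24 h and 1644 to 1825 at 48 h, against 81467 to 99961 and 56704 to 60981 with urea, and 64360 to 79426 and 58892 to 71986 with SA. The summed level of the 6 root markers was 16290 to 20790 with L-Glu at 48 h, against 2511 to 3063 with urea, and with SA it was 413 to 1774 over the 4 times. This sum is almost wholly PYK10, a beta-glucosidase gene, whose mean was 18216 of a mean sum of 18502 with L-Glu at 48 h and 2482 of 2792 with urea. PYK10 (2.88 ± 0.24, limma adjusted p = 2.48e-12) and the root hair gene EXPA7 (1.65 ± 0.41, 0.00098) were called higher with L-Glu at 48 h. The other 4 were not called, with CASP1 at -0.34, SCR at -0.43, TIP2-3 at -0.59 and COBL9 at 0.06, and the median of the 6 was -0.14. Of the 6, 5 were called lower with SA at 12, 24 and 48 h. With SA at 48 h the root hair marker EXPA7 and the aquaporin marker TIP2-3 are listed at 0 in all 3 libraries. The part of these movements in the values of the 9 genes was not tested.

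**Figure D4:**
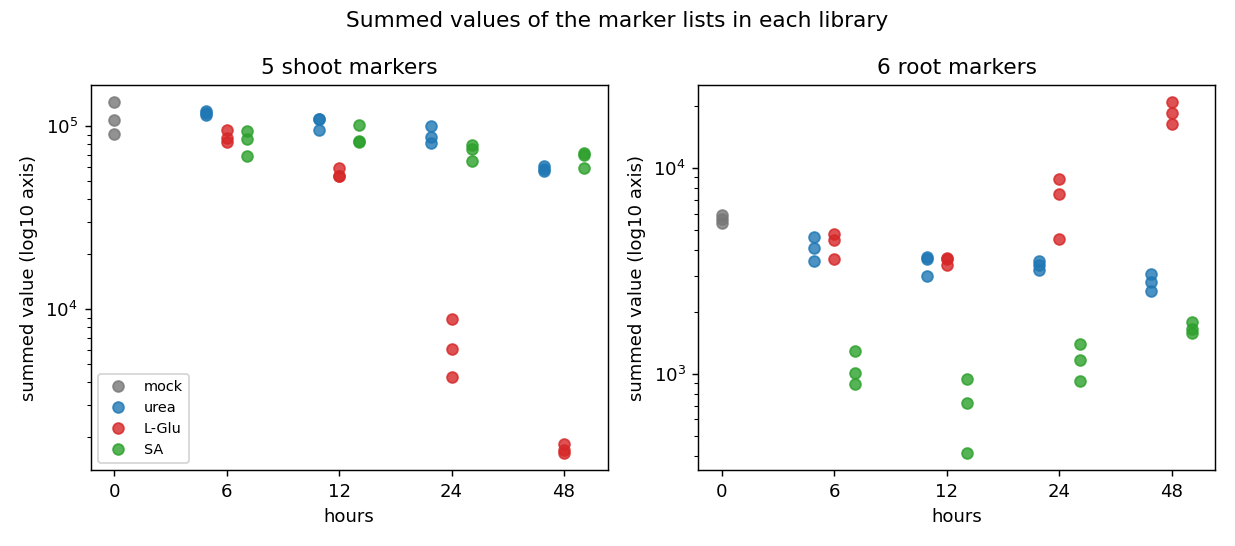
Summed level of 5 shoot and 6 root marker genes in each library, on a log10 axis, against hours after treatment. At 48 h the L-Glu libraries lie between 1644 and 1825 for the shoot markers and between 16290 and 20790 for the root markers, a sum made up almost wholly of PYK10, while 4 of the 6 root markers were not called.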

How the data were processed

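RNA-seq values of 39 libraries in 13 groups were analysed. The authors deposited a signal value per gene and library, a normalized value that is not whole, for 20001 genes, and all 39 columns were matched to samples by name. Per the submitters' processing notes, the build was TAIR10 and the tools were edgeR 3.22.3, HTSeq 0.6.0 and TopHat2 2.1.0, with no role stated for any. How the signal was scaled is not given in the sources. Whole reads were not recovered: the median share of low values within 0.1 of a whole multiple of a step was 28.0% over the columns, and only 5 columns passed 80%. Depth is therefore unknown and no count test was run. No source gives strandedness, so reads of a gene and of its antisense partner cannot be told apart.

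A gene needed a value of 1 or more in 3 or more libraries, and all 20001 passed. Values entered limma 3.58.1 in R 4.3.3 as log2(value + 1), with 13 group means, a trended prior variance and 26 residual degrees of freedom. Tests were two-sided, in 19 comparisons, adjusted by Benjamini-Hochberg over all genes. The procedure was tested on simulated data with the same spread in every group and few changed genes. Such data cannot show how it behaves with the wider spread of L-Glu or where much of the transcriptome changes. Fold changes are powers of these log2 differences. Each gene has 1 spread over the 13 groups, and libraries deviated from their group by a root mean square of 0.412 to 0.524 in L-Glu at 48 h and at most 0.365 in urea, so SEs may be too small for L-Glu. Names, positions and sequences came from RefSeq TAIR10.1, which named 19887 of the identifiers.

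All 10 genes were to be given in every comparison. From each list of related genes, at most 3 called higher and 3 called lower with the largest difference in L-Glu against urea at 24 h were named, and at most 2 whose direction differed between L-Glu and SA. The genes and lists were chosen with earlier results of these data known. Chlorophyll synthesis held 23 genes, of which 22 have a value. The alternatives tried were a filter at 5 or none, pseudocounts of 0.25 and 4, quantile normalization, scaling to the same total, a replicate block, a fit of the compared groups alone and each library left out.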

Additional observations from a re-analysis of the deposited data

Results flagged for a closer look

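Effects of L-Glu that differed between times are given here, each as the shift between times of the log2 difference between L-Glu and urea, tested with limma and Benjamini-Hochberg adjustment. From 6 to 12 h the difference changed by -1.12 for NYE1, -1.26 for NYC1 and -1.01 for PAO. From 12 to 24 h it changed by -0.82 for NYE1, -1.80 for NYC1, -1.85 for NOL, -0.93 for PPH and -2.77 for PAO. With 1 library left out, the call was lost in 4 of 12 fits for PAO from 6 to 12 h, and from 12 to 24 h in 7 of 12 for PPH and 1 of 12 for NYE1. From 24 to 48 h it changed by 1.37 for ORE1 and 1.00 for PAO, with the call lost in 3 of 12 and 2 of 12 such fits, both without L-Glu 48 h replicate 2 among them. From 6 to 48 h it changed by -2.29 for NYE1, -2.80 for NYC1, -1.93 for NOL, -2.03 for PPH and -2.79 for PAO. Against this, 19.1% of all genes were called lower with the values as deposited, a share that depended on the scaling. The summed shoot markers fell over the same times from between 82213 and 95063 to between 1644 and 1825 in L-Glu, and their part in these changes was not tested.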

How the results depend on the processing

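Of 171 values for single genes, 89 were called, and 66 of these kept their call under every alternative. No called value changed direction. Calls were also gained by values not called in the main fit, 7 times with 1 library left out and 25 times under the other alternatives. Scaling to the same total gave 2 genes called in SA against urea at 48 h in place of 4. For the shift from 24 to 48 h, 1 was called in place of 2 in the fit of the compared groups alone and without L-Glu 6 h replicate 2 and L-Glu 48 h replicate 2, an alternative chosen after seeing the data, where the call was PPH (lower). Leaving out 1 library at a time gave 3 to 6 calls in L-Glu against urea at 12 h (6 with all; 3 without urea replicate 2; 5 with a pseudocount of 0.25 or in the fit of the compared groups alone), 3 to 4 in urea at 48 h against 6 h (5 with all; 3 without replicate 1 of either time) and 1 to 3 in the shift from 24 to 48 h (2 with all; 1 without urea 24 h replicate 2, urea 48 h replicate 1, L-Glu 24 h replicate 1 or L-Glu 48 h replicate 2). Without urea 48 h replicate 1, the calls over all genes in urea at 48 h against 6 h were 1950, in place of 3159. For the shift from 24 to 48 h they were 2672 in the fit of the compared groups alone, in place of 4514. The cause was not tested. Over all genes, the share of called genes that were higher in L-Glu than urea at 6, 12, 24 and 48 h was 72.6%, 54.2%, 48.33% and 47.8%, at the same total 76.0%, 28.4%, 17.9% and 25.6%, and after quantile normalization 56.5%, 37.6%, 40.6% and 41.7%. Values that changed sign were not called. With quantile normalization they were PPH in L-Glu against urea at 6 h (-0.042), NYC1 in SA against urea at 24 h (-0.14), SAG29 in L-Glu against SA at 12 h (-0.17), SAG13 in the L-Glu shift from 24 to 48 h (-0.014), and NYC1 in the SA shift from 6 to 48 h (-0.11) and in urea at 48 h against 6 h (0.11). At the same total they were NAP (-0.13) at 12 h, SAG13 (-0.55) at 24 h, and ORE1 (-0.17) and NAP (-0.088) at 48 h in L-Glu against urea, NYC1 in SA against urea at 24 h (-0.087), and SAG29 in L-Glu against SA at 24 h (-0.092). So were the L-Glu shifts of SAG29 from 12 to 24 h (-0.17) and of NYE1 (0.19) and PPH (0.073) from 24 to 48 h, and NYC1 in the SA shift (-0.068) and in urea over time (0.10). A pseudocount of 4 turned the SAG13 shift from 6 to 48 h to 0.028. Without both replicates 2 the 24 to 48 h shift was -0.76 for SAG13, -0.07 for NYC1 and -0.06 for NOL, PPH at 6 h was -0.0091, and at 48 h SAG13 was -0.27, ORE1 -0.04 and NAP -0.15 against urea. With 1 library left out, L-Glu against urea ran from -0.061 to 0.10 for PPH at 6 h, from -0.56 to 0.31 for NAP at 24 h, and at 48 h from -0.27 to 1.11 for SAG13, from -0.15 to 0.71 for NAP and from -0.036 to 0.67 for ORE1. SA against urea ran from -0.029 to 0.067 for NYC1 at 24 h and from -0.31 to 0.21 for NYE1 at 48 h. L-Glu against SA ran at 12 h from -0.33 to 0.071 for NOL and from -0.32 to 1.10 for SAG29, and at 48 h from -0.62 to 0.30 for SAG29. The L-Glu shift ran from -0.24 to 0.072 for NOL from 6 to 12 h and from -0.38 to 1.04 for SAG29 from 12 to 24 h. From 24 to 48 h it ran from -0.76 to 0.61 for SAG13, -0.067 to 0.67 for NYC1, -0.23 to 0.30 for NOL and -0.42 to 0.63 for SAG29, and from 6 to 48 h from -0.88 to 0.50 for SAG13. The SA shift from 6 to 48 h ran from -0.18 to 0.028 for PAO, -0.22 to 0.037 for NOL and -0.066 to 0.18 for NYC1. Urea at 48 h against 6 h ran from -0.18 to 0.066 for NYC1, and urea against mock from -0.44 to 0.59 for SAG29 and -0.078 to 0.77 for ORE1. Same-numbered libraries were not treated as paired in the main fit. Over 36 pairs in 12 comparisons the correlation of their deviations ran from -0.07 to 0.14. It exceeded 0.1 in 5 pairs, and in 0 comparisons did every pair exceed 0.1. Such low values do not show that the libraries were prepared apart. A replicate block left 18 of 19 counts of calls as they were and raised L-Glu against SA at 6 h from 6 to 7, through SAG13 (-1.28, limma adjusted p = 0.0433). Depth is unknown, so no counting limit can be given for the low values of SAG29 and of SAG13 in mock, which does not mean that they have none.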
